A study of Mus musculus with 6 samples.

Results

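The 10 genes described here make, break down or sense prostaglandins in cultured mouse liver cells: Ptgs1, Ptgs2, Ptges, Ptgis, Ptgds, Hpgd, Ptger1, Ptger2, Ptger3 and Ptger4. They were chosen by symbol alone, and every array probe whose accession maps to 1 of the symbols was kept. This gave 13 probes of 10 genes, out of 39429 probes and 20659 named genes on the array. Ptges, Hpgd and Ptger3 had 2 probes each and the other 7 genes had 1. All 6 samples were total RNA from cultures of CD63-positive cells (CD63 is a tetraspanin membrane protein) derived from adult mouse liver. In the DDC injury group (3 arrays) the livers had been injured with DDC, a porphyrogenic compound that damages bile ducts; in the no injury group (3 arrays) they had not. Strain, age and sex are not given in the sources used here. The series is described as 6 cell lines, so the values describe cells in culture, not cells fresh from the liver, and nothing says whether the lines of a group came from separate animals. P-values therefore measure the spread between these cultures, which was larger between the DDC injury arrays than between the no injury arrays (values below). Both groups were grown in the same basal medium with serum, HGF, EGF, insulin, dexamethasone and nicotinamide. VEGF and bFGF were added to some cultures, which the labels name by codes that match no sample title, so their part in any difference was not tested.

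Prostaglandins are lipid messengers made from arachidonic acid, which phospholipases release from membranes. The cyclooxygenases Ptgs1 (largely constitutive) and Ptgs2 (inducible) convert it to PGH2, and terminal synthases turn PGH2 into PGE2 (Ptges), prostacyclin (Ptgis) or PGD2 (Ptgds). PGE2 acts through the G protein-coupled receptors EP1 to EP4, encoded by Ptger1 to Ptger4, and is inactivated inside cells by the dehydrogenase Hpgd. In the liver, the pathway is known for its activity in inflammation, in fibrosis and in regeneration after tissue loss.

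RefSeq promoter windows of 300 bases (250 before and 50 after the annotated start, build GRCm38.p6) were found for 8 of the 10 genes. Those of the 3 genes with a probe past the test (Ptgs2, Ptgds and Hpgd) and of Ptgs1, the other cyclooxygenase, are printed so that their start-site regions can be compared. Both strands were searched for 7 motifs: the cAMP response element core ACGTCA, the E-box CACGTG, the C/EBP palindrome TTGCGCAA, the GC box GGGCGG, the TATA box TATAAA, the CCAAT box CCAAT and the AP-1 site TGANTCA. Matches are in capitals, as they read on the strand of the gene.
Ptgs2, chr1:150099781-150100080, plus strand: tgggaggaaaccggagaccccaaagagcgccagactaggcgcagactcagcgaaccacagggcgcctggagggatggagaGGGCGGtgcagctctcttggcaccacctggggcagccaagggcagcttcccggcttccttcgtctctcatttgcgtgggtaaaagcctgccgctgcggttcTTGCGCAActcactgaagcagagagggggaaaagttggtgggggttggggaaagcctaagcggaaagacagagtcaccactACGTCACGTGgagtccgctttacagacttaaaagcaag
Ptgs1, chr2:36230176-36230475, plus strand: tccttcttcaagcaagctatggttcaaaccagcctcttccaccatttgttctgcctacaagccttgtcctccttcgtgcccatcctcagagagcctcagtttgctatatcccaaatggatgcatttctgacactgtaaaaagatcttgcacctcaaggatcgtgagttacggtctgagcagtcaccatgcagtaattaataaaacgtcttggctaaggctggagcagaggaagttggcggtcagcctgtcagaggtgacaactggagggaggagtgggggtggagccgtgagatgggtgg
Ptgds, chr2:25469700-25469999, minus strand: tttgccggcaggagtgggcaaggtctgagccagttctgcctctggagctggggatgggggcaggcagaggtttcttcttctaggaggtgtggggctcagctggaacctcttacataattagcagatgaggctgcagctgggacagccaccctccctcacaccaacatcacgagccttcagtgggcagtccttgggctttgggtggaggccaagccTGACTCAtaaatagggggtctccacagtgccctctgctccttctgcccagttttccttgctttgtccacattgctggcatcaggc
Hpgd, chr8:56294302-56294601, plus strand: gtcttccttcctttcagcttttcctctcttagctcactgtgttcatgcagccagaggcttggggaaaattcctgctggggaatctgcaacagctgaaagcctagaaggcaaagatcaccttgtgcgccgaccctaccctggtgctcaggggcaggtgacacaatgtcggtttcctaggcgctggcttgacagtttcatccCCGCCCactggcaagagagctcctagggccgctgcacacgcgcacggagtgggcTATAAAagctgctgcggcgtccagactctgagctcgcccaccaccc

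The Ptgs2 window held matches to 4 of the motifs: a GC box from -170 to -165, the C/EBP palindrome from -69 to -62, and a cAMP response element core from 13 to 18 that overlaps an E-box from 17 to 22, counted from the annotated start. The same letters occur on either strand in 35.7%, 0.183%, 7.51% and 7.15% of 32851 windows of this length. The Ptgs1 window held none of the 7. The Ptgds window held 1 AP-1 site, from -35 to -29, a motif found in 7.81% of all windows. The Hpgd window held 1 GC box, read on the opposite strand, from -50 to -45, and a TATA box from 5 to 10; TATA boxes occur in 13.6% of all windows. These matches are a description of letters, not of sites that a factor was shown to use.

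Each array carried 43020 spots other than controls. Between 65.0% and 74.8% of them were well above background by the scanner's own test and none was saturated; the small number of arrays sets the precision. A probe's level is the log2 of its processed signal minus the log2 of the array's 75th percentile of that signal (1441 to 2271), so 0 marks a probe as bright as that percentile, and levels are compared between arrays, not between probes. The difference between no injury replicates 1 and 3 was not shown to exceed the noise of repeated spots (chi-square 215.2 with 184 degrees of freedom, p = 0.0575 over 185 bright repeated probes, with a spread 1.02 times that noise). For the other pairs of the group the spread was 1.39 and 1.74 times it. No injury replicates 1 and 3 were therefore averaged and counted as 1 sample. For the pairs of DDC injury arrays the spread was 12.3, 3.60 and 12.8 times that noise. Over these bright probes the spread within groups thus lay mostly in the DDC injury group. That they are 1 sample is not known, and the fit with all 6 arrays separate is given where it changes the call of a member probe. The comparison is thus of 3 DDC injury against 2 no injury samples. The arrays were scanned in 3 scans, each holding 1 group only, so scan and group cannot be told apart; the scan of DDC injury replicate 1 fell on a separate day and the other 5 arrays shared a day. Cd63 itself was well above background on all 6 arrays, at 3.65, 4.07 and 3.70 after DDC injury and 3.94, 3.88 and 3.95 without injury.

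Of the 13 probes, 11 were well above background on at least 3 arrays and were tested, in 9 genes. In the DDC injury cultures 1 probe was higher (Ptgs2) and 2 were lower (Ptgds and 1 probe of Hpgd) at an adjusted p under 0.05 (limma, two-sided, Benjamini-Hochberg over all 27426 tested probes). That is 27.3% of the tested probes, beside 29.3% of all tested probes on the array (15.5% higher and 13.8% lower), so the share of members called was close to the background. The arrays of the groups did not overlap for 4 probes that read higher after injury and 4 that read lower, beside 29.6% and 31.5% of all tested probes. Together these 8 are 72.7% of the 11 probes, beside 61.1% of all tested probes. The median difference of the 11 probes, DDC injury minus no injury, was -0.58 on the log2 scale, beside -0.10 for all tested probes. That median is the value of a Ptger3 probe that was at background on every DDC injury array. Without it, 10 probes remain, with a median of -0.34, and 4 read higher and 3 lower without overlap.

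Ptgs2, the inducible cyclooxygenase, was the 1 member that rose. Its level was -1.72, -0.66 and -1.43 in DDC injury replicates 1 to 3 and -4.48, -4.59 and -4.43 in no injury replicates 1 to 3. All 3 injury arrays stood above all 3 no injury arrays, and replicate 2 was the highest. The mean was -1.27 ± 0.55 (SD, n = 3) after injury and -4.52 ± 0.09 (SD, n = 2) without, a difference of 3.25 ± 0.36 (SE; 95% interval 2.30 to 4.20), or 9.52-fold (limma, adjusted p = 0.00701). Of all tested probes, 1.05% differed upward as much or more. If the 3 no injury arrays count as a single sample, the difference was 3.23 and the adjusted p 0.0873, and without no injury replicate 2 they were 3.19 and 0.0879, so the call rests on counting 2 no injury samples. Within the day that holds both groups, the difference was 3.48 (adjusted p = 0.00670). The rise was smallest, at 2.63 (6.17-fold), after normexp background correction.

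The Ptgs2 probe was printed on 10 spots of each array, which gives its spot-to-spot error within an array. Error from labelling, hybridisation or scan is not part of it. Mean processed signals were 689, 915 and 584 on the DDC injury arrays and 92.7, 92.2 and 98.8 on the no injury arrays. The SD over the spots of an array lay between 0.05 and 0.16 on the log2 scale, smaller than the SD of 0.55 between the injury samples. The dimmest spot of the injury arrays, at -1.83, was brighter than the brightest spot of the no injury arrays, at -4.22. One spot of no injury replicate 1, at -5.63, had an outlier flag and was left out. Spots of an array are repeats of 1 sample and enter the test as their mean.

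**Figure D1:**
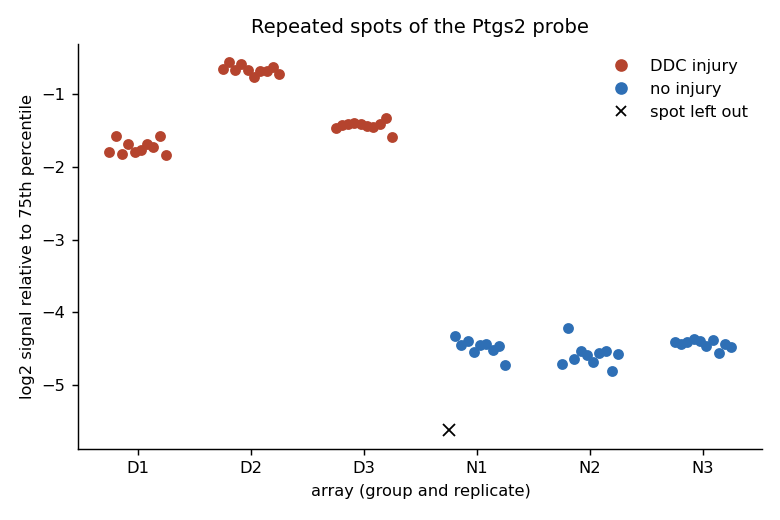
Log2 level of every spot of the Ptgs2 probe on each array, relative to the array's 75th percentile, 1 point per spot; the spot left out is drawn as a cross. The spots of the 3 DDC injury arrays lie between -1.83 and -0.56 and those kept on the 3 no injury arrays between -4.81 and -4.22.

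Ptgs1, the constitutive cyclooxygenase, differed less. It read 2.22, 1.61 and 2.02 after DDC injury and 1.31, 1.34 and 1.31 without injury, so the groups did not overlap and the lowest injury array was replicate 2. The difference was 0.63 ± 0.21 (95% interval 0.05 to 1.20), 1.54-fold, and did not pass the test across all probes (limma, adjusted p = 0.0984). It passed with all 6 arrays counted separately (adjusted p = 0.0308) and without DDC injury replicate 2 (0.79, adjusted p = 0.0199).

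Among the terminal synthases, Ptgds fell and the prostaglandin E and prostacyclin synthases gave no call. Ptgds, the lipocalin-type PGD2 synthase, read -6.29, -4.86 and -6.11 after DDC injury and -3.71, -3.59 and -3.72 without. Every injury array was below every no injury array, and replicate 2 was the nearest to them. The means were -5.76 ± 0.78 (SD, n = 3) and -3.65 ± 0.09 (SD, n = 2), and the level fell by 2.11 ± 0.49 (SE), 4.31-fold lower (95% interval of the log2 difference -3.42 to -0.79; limma, adjusted p = 0.0395). The probe was well above background on all 6 arrays. This call held in 10 of 17 distinct alternatives. It was lost under quantile normalization (-1.81, adjusted p = 0.0519), normexp background correction (-1.08, 0.0549), no filter on dim probes (0.0625), scan as a random block (0.0827) and the no injury arrays as a single sample (0.213). Leaving out DDC injury replicate 3 (0.108) or leaving out no injury replicate 2 (0.216) also ended it.

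The 2 probes of Ptges, the inducible microsomal PGE2 synthase, both missed the threshold. One (A_55_P1974193) read 3.25, 3.56 and 3.43 after injury and 3.46, 3.49 and 3.41 without, with a difference of -0.05 ± 0.14 (95% interval -0.42 to 0.32; adjusted p = 0.809). The other (A_55_P1974189) was dim, at -6.09, -5.42 and -4.93 against -6.50, -6.12 and -6.15, with a difference of 0.74 ± 0.38 (95% interval -0.27 to 1.76; adjusted p = 0.215). For the dim probe the injury arrays were all higher than the no injury arrays, and it passed under quantile normalization (1.06, adjusted p = 0.0181), in the values deposited by the authors (0.53, adjusted p = 0.0393) and within the shared scan day (1.05, adjusted p = 0.0319). The difference between the probes was not tested.

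Ptgis, the prostacyclin synthase, was dim throughout. It read -7.75, -5.32 and -5.18 after injury, the first not well above background, and -5.57, -5.42 and -5.40 without injury. The groups overlapped, and the difference of -0.63 ± 0.89 (95% interval -3.02 to 1.77; adjusted p = 0.640) turned to 0.20 within the shared scan day, where DDC injury replicate 1 is absent.

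Hpgd, the NAD-dependent enzyme that oxidises PGE2 to an inactive ketone, was lower after injury by both of its probes, and 1 of them passed the test. Probe A_55_P2035424 read -5.33, -3.98 and -3.33 after DDC injury and -0.65, -0.83 and -0.67 without. The means were -4.21 ± 1.02 (SD, n = 3) and -0.75 ± 0.12 (SD, n = 2), and the level fell by 3.47 ± 0.64 (SE), 11.1-fold lower (95% interval of the log2 difference -5.17 to -1.76; limma, adjusted p = 0.0225). Probe A_51_P458778 read -6.62, -3.88 and -3.55 against -1.69, -2.00 and -1.62, with a difference of -2.85 ± 1.05 (95% interval -5.66 to -0.05; adjusted p = 0.113). This second probe passed with all 6 arrays counted separately (limma, adjusted p = 0.0397) and after normexp (0.0493). It also passed after normexp with quantile normalization (0.0209) and in the values deposited by the authors (0.0298). On both probes every injury array was below every no injury array and replicate 1, the array scanned on its own day, was the lowest. Within the shared scan day the differences were -2.91 (adjusted p = 0.00723) and -1.89 (adjusted p = 0.00923). The size of the fall depended on the background correction: on the first probe it was 5.35-fold after normexp, 4.80-fold after normexp with quantile normalization and 5.99-fold in the values deposited by the authors. The call of the first probe was lost without DDC injury replicate 2 (adjusted p = 0.0535), without no injury replicate 2 (0.149) and when the no injury arrays counted as a single sample (0.155).

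Of the 5 PGE2 receptor probes, 3 could be tested and 0 passed (limma), beside 29.3% of all tested probes. With 3 probes, that count cannot be told apart from the share over the array. Ptger4, which encodes the Gs-coupled receptor EP4, had the only receptor probe well above background on all 6 arrays, at -4.35, -3.83 and -4.44 after injury and -4.57, -4.72 and -4.58 without. The injury arrays were all slightly higher, with a difference of 0.44 ± 0.23 (95% interval -0.18 to 1.06; adjusted p = 0.225). Ptger1, for the calcium-mobilising EP1, read -8.10, -6.20 and -6.70 against -6.46, -6.20 and -6.60, with the first value not well above background. Its groups overlapped and its difference was -0.63 ± 0.62 (95% interval -2.30 to 1.03; adjusted p = 0.497).

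Ptger3, for the Gi-coupled EP3, had 1 testable probe, A_51_P520718, which passed the filter only through the no injury group. It was not well above background on any DDC injury array (-7.95, -8.45 and -7.62) and was on all 3 no injury arrays (-7.42, -7.49 and -7.32). A bound was set with, on each injury array, the higher of the probe's own level and the lowest level well above background. By that bound it was 1.01-fold lower after injury, which is close to no difference. The fitted difference was -0.58 ± 0.28 (limma, adjusted p = 0.191). Under normexp with the 75th percentile it turned to 0.19, so no direction is given. Its second probe (A_55_P1975481) was well above background on 1 of 6 arrays and was not tested. Ptger2, for the Gs-coupled EP2, had no array on which its probe was well above background, so no fold is given; its readings of -8.05, -9.06 and -7.67 after injury and -9.71, -9.71 and -9.22 without have no order at that level.

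**Figure D2:**
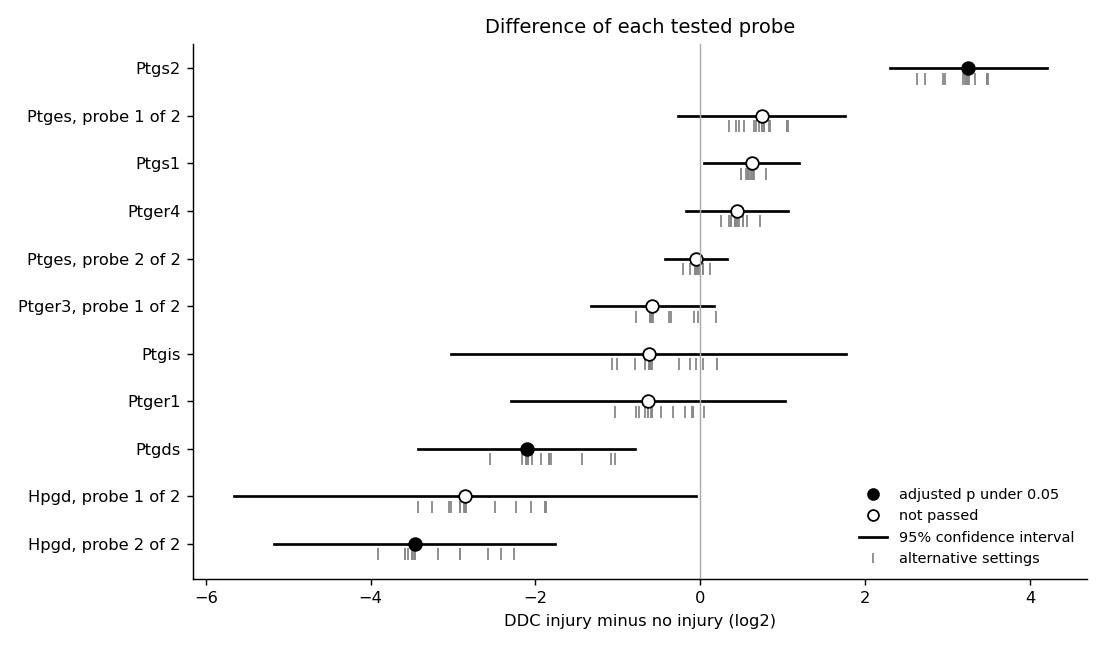
Fitted log2 difference, DDC injury minus no injury, of each of the 11 tested probes with its 95% interval; filled points passed the test across all probes, and grey ticks are the differences under alternative processing. Ptgs2 lies at 3.25 on the higher side, and Ptgds at -2.11 and an Hpgd probe at -3.47 on the lower side.

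The other genes of the pathway were taken from 8 lists of 140 genes in all, each gene represented by its probe with the highest mean level. Of the 114 genes tested, 19 were higher and 22 lower after injury, 36.0% in all, beside 30.8% of all 15659 genes tested in the same way (16.2% higher and 14.6% lower). Their median difference was -0.14, beside -0.07 over all genes. When the no injury arrays counted as a single sample, Pla2g7 and Cysltr1 were the 2 list genes that passed; in that fit 279 probes of the whole array were higher and 133 lower. Leaving out no injury replicate 2 also gave 2 higher and 0 lower, and leaving out DDC injury replicate 3 gave 9 and 11. Of the genes named from these lists, the calls of Pla2g7 and Cysltr1 held in all 17 distinct alternatives. Those of Plaat3, Tbxas1 and Bdnf held in 11, that of Alox12b in 10, those of Pla2g4a, Acsl3, Slco2a1, Ptges3, Nr4a1 and Sik1 in 12, and each of the rest in 15. Some sizes also moved by over 1.5-fold: the log2 difference nearest to 0 over the alternatives was 3.34 for Pla2g7, -2.31 for Prxl2b, -0.69 for Pla2g3, -0.61 for Alox12b and -1.17 for Zfp36.

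Upstream of the cyclooxygenases, 20 of the 25 genes of arachidonate release and reacylation were tested; 4 rose, 3 fell and the median difference was -0.29. Pla2g7, the secreted hydrolase of platelet-activating factor and oxidised phospholipids, read -0.27, -0.43 and -0.37 after injury and -4.34, -4.33 and -4.27 without. Its rise of 3.96 ± 0.11 (15.6-fold) had an adjusted p of 0.00107. Acsl3, an acyl-CoA synthetase, rose by 1.14 ± 0.23 (adjusted p = 0.0275). The phospholipase-type acyltransferase Plaat3 fell by 1.86 ± 0.47 (adjusted p = 0.0488) and the secreted phospholipase Pla2g3 by 1.48 ± 0.17 (adjusted p = 0.00808). Pla2g4a, the cytosolic phospholipase that feeds the cyclooxygenases, was singled out after its values were seen and rose by 1.01 ± 0.21 (2.01-fold, adjusted p = 0.0314).

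Of 9 other prostanoid synthases tested, 1 rose and 3 fell, with a median difference of 0.23. Prxl2b, the prostamide and PGF2 alpha synthase, was 9.53-fold lower, at -4.87, -4.78 and -5.45 after injury against -1.88, -1.74 and -1.76 without (adjusted p = 0.00354). Cbr1, a carbonyl reductase that can act on PGE2, fell by 1.17 ± 0.18 (adjusted p = 0.0139), and Tbxas1, the thromboxane synthase, fell by 0.84 ± 0.11 (adjusted p = 0.0108). The Tbxas1 difference shrank to as little as -0.16 under an alternative, and its call was lost under quantile normalization and in the values deposited by the authors. Ptges3, the cytosolic PGE2 synthase also known as the Hsp90 co-chaperone p23, rose by 0.81 ± 0.18 on its brightest probe (limma, adjusted p = 0.0331). Of its 4 tested probes 2 were called higher, and their differences ran from 0.23 to 1.22. The haematopoietic PGD2 synthase Hpgds was well above background on 0 of 6 arrays.

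Of 6 tested transport and breakdown genes other than Hpgd, 2 rose and 4 did not pass on their brightest probe, with a median difference of -0.14. Ptgr1, which reduces the 15-keto product of Hpgd, rose by 0.87 ± 0.11 (1.82-fold, adjusted p = 0.0104). Slco2a1, the prostaglandin uptake transporter, rose by 0.84 ± 0.17 (1.79-fold, adjusted p = 0.0283). Ptgr2, another prostaglandin reductase, had probes that disagreed: the brightest differed by -0.16 and a second by -0.31 without a call, while another fell by 1.59 ± 0.12 (adjusted p = 0.00360). Of the 5 receptors for other prostanoids, Ptgfr and Ptgir were above background on none of the arrays by that test, Ptgdr on 1, and the tested pair, Ptgdr2 and Tbxa2r, gave differences of -0.04 and -0.61 without a call. Within the shared scan day, which lacks DDC injury replicate 1, both turned positive: Ptgdr2 differed by 0.45 ± 0.11 and passed (adjusted p = 0.0467), and Tbxa2r by 0.18 ± 0.18 did not.

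The lipoxygenase and leukotriene list, the other branch of arachidonate use, had 1 rise and 1 fall among 11 tested genes and a median difference of -0.41. Cysltr1, a cysteinyl leukotriene receptor, read -3.67, -3.76 and -3.94 after injury and -7.23, -7.16 and -6.88 without, a rise of 3.32 ± 0.13 (9.97-fold, adjusted p = 0.00125). The size of this rise depended on the background correction: it was 1.58 after normexp, 1.53 after normexp with quantile normalization and 2.17 in the values deposited by the authors. Its other tested probe differed by 5.41, and by 1.58 after normexp. On which arrays that probe was well above background is not given here, so it is not counted as separate support. Alox12b, an epidermal-type lipoxygenase, fell by 1.22 ± 0.28 (adjusted p = 0.0390), while its other tested probe differed by 0.06.

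Downstream of the EP receptors, 29 signalling genes were tested, of which 5 rose and 5 fell, with a median difference of -0.10. Prkar2b, a regulatory subunit of protein kinase A, rose by 1.65 ± 0.21 (adjusted p = 0.00953), and Rapgef3, the cAMP-activated exchange factor Epac1, rose by 1.37 ± 0.22 (adjusted p = 0.0172). Creb1, the cAMP-responsive transcription factor, rose by 1.34 ± 0.14 (adjusted p = 0.00660) on its brightest probe, and another of its probes differed by -0.53. Grk5, a receptor kinase, fell by 1.33 ± 0.19 (adjusted p = 0.0132). Adcy8, an adenylyl cyclase, was well above background on 2 DDC injury arrays and on 0 no injury arrays and was not tested; it read -6.95, -6.93 and -7.04 after injury, replicate 2 at background, and no fold is given.

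Among 13 cAMP and CREB target genes tested, 2 rose and 3 fell, and the median difference was -0.00. Nr4a1, an immediate early nuclear receptor, rose by 0.89 ± 0.21 (adjusted p = 0.0407) and the neurotrophin Bdnf by 0.69 ± 0.17 (adjusted p = 0.0432). The coactivator Ppargc1a fell by 1.64 ± 0.24 (adjusted p = 0.0131) and the kinase Sik1 by 0.80 ± 0.19 (adjusted p = 0.0388). The share of this list called was 38.5%, beside 30.8% of all genes tested in the same way (16.2% higher and 14.6% lower).

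Of 24 tested genes known to act on Ptgs2 transcription or mRNA, 4 rose and 7 fell on their brightest probes, with a median difference of -0.12. Elavl1, counted as a rise (0.79), had another probe that was called lower (-0.75). Fosl1, an AP-1 subunit, read 0.85, 0.30 and 0.57 after injury and -2.58, -2.59 and -2.62 without, a rise of 3.17 ± 0.20 (8.98-fold, adjusted p = 0.00243). Jun, its potential AP-1 partner, fell by 1.97 ± 0.14 (adjusted p = 0.00307). Cebpd, a C/EBP factor, read -1.19, -1.86 and -1.09 after injury and 2.09, 2.09 and 2.15 without, so that it was 11.2-fold lower (adjusted p = 0.00376). Zfp36, the tristetraprolin protein that promotes decay of AU-rich mRNAs, fell by 1.84 ± 0.20 (adjusted p = 0.00716). The Fosl1, Jun, Cebpd and Zfp36 calls were lost in the fit with a single no injury sample, at adjusted p from 0.0557 to 0.0945. Of the cytokine inducers on the list, Il1b was well above background on 1 array and Tnf on 0.

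**Figure D3:**
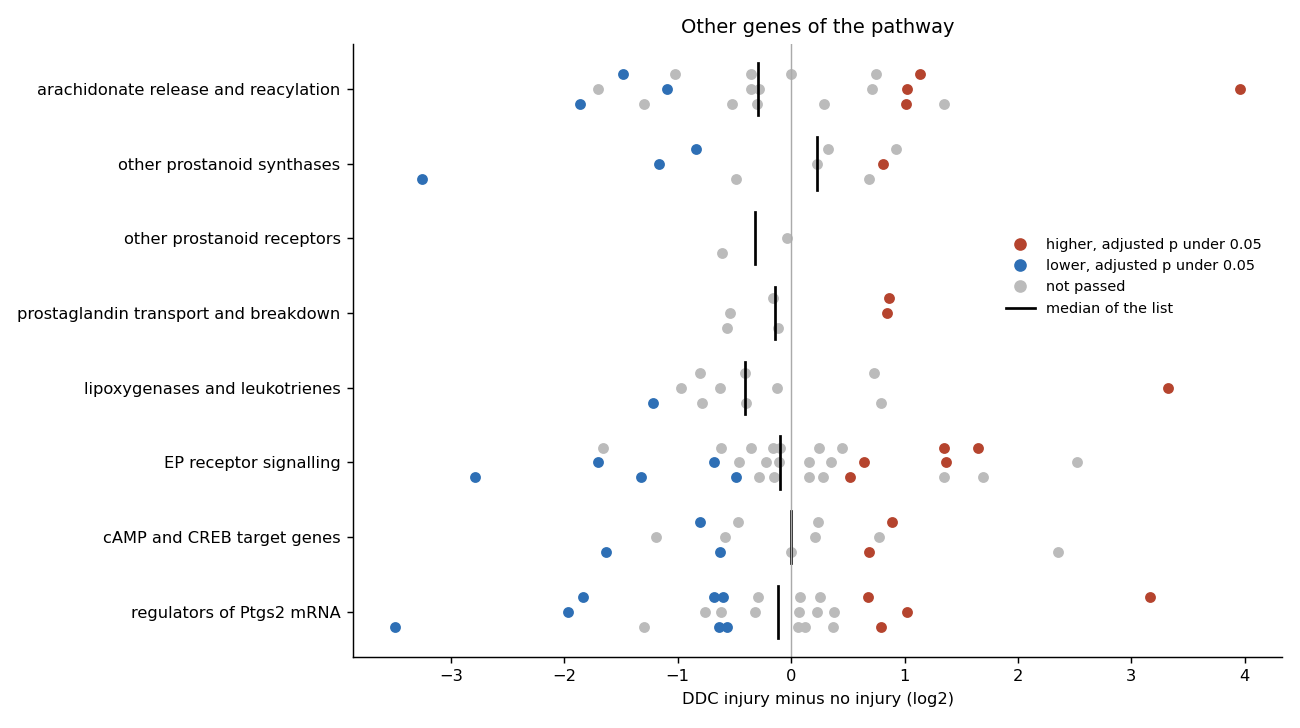
Log2 difference, DDC injury minus no injury, of every tested gene in each of the 8 pathway lists, 1 point per gene, coloured where the gene passed the test across all probes (red higher, blue lower) and grey where it did not, with the median of each list as a bar. The medians lie between -0.41 and 0.23, and the highest points are Pla2g7 at 3.96, Cysltr1 at 3.32 and Fosl1 at 3.17.

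Markers of other cells that could carry prostaglandin genes were measured on the same arrays. The summed signal of 9 haematopoietic and macrophage markers, relative to the 75th percentile, was 2.97 to 6.38 after injury and 7.51 to 7.83 without, with Clec4f at background on each array. That of 11 stellate, fibroblast and smooth muscle markers was 0.20 to 1.08 against 0.37 to 0.53 (Des, Reln and Rgs5 at background throughout), that of 7 endothelial markers 0.17 to 0.49 against 0.48 to 0.54, and that of 6 mast cell markers 0.07 to 0.12 against 0.07 to 0.09 (Ms4a2 at background throughout). None of these 4 sums, which a few bright genes carry, was higher on all DDC injury arrays than on all no injury arrays. Single markers in them were: Pdgfra, a receptor of fibroblasts and stellate cells, rose by 2.49 ± 0.42 (adjusted p = 0.0186), and Mcpt4, a mast cell protease, by 1.60 ± 0.23 (3.03-fold, adjusted p = 0.0128). Col1a1 differed by 1.04 ± 0.49 without a call (adjusted p = 0.190), also with no overlap. Of the other mast cell markers, Kit differed by 0.84 and Tpsb2 by -0.54 without a call, and Tpsb2 was lower on all injury arrays. Cpa3 and Cma1 were each well above background on 1 no injury array only and were not tested. The macrophage integrin Itgam fell by 2.73 on the log2 scale on its brightest probe (limma, adjusted p = 0.00674). Of its 3 tested probes 1 was called lower, and their differences ran from -2.73 to -0.31. The 6 mesothelial markers, which share the bright Krt19 with the cholangiocyte list, summed to 37.5 to 43.0 after injury and 33.4 to 35.8 without, groups that did not overlap. Msln and Krt19 carry that sum and gave no call (0.15 and 0.37), whereas Wt1 was lower (-3.30, limma, adjusted p = 0.0113). Upk3b passed the filter only through the no injury group. It was at background on every injury array and, taken as a bound, at least 5.47-fold lower. The median of the 5 tested mesothelial genes, -3.28, is the value of that Upk3b probe. Lrrn4 went the other way, at -7.02, -6.93 and -6.77 after injury and -9.35, -9.82 and -8.46 without. Its probe was well above background on 2 injury and 0 no injury arrays and was not tested. The 8 cholangiocyte and progenitor markers summed to 51.1 to 56.3 after injury and 64.3 to 66.0 without. The 7 hepatocyte markers summed to 11.0 to 19.6 against 31.5 to 35.8. Both sums, like the haematopoietic sum, were lower on all injury arrays, as were 31.5% of all tested probes. A few bright genes carry these sums too: Spp1 differed by -0.25 without a call, and Ttr fell by 3.94 (limma, adjusted p = 0.0131). Within these lists, Krt19, Krt7 and Hnf4a were well above background on all 6 arrays and gave no call, while Epcam, Sox9, Prom1 and Alb were lower after injury by 2.59, 1.57, 8.69 and 6.14 on the log2 scale. The part of these markers' cells in the differences of Ptgs2, Ptgds and Hpgd was not tested, and in bulk RNA fewer cells of a type and less RNA per cell cannot be told apart.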

How the data were processed

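RNA of 6 cultures (3 DDC injury, 3 no injury) was labelled with Cy3 on 1-colour Agilent arrays and scanned with Feature Extraction 11.0.1.1, per the file headers. The deposited scanner files give background-subtracted spot intensity; a second deposited table holds the authors' processed values on a log2 scale, and limma is named in the submitters' processing notes, without a version. The array annotation build is mm9, and symbols come from RefSeq GRCm38.p6 by accession: 27234 of 39429 probes have 1 symbol and 12195 none.

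Control spots and spots with outlier flags (179 to 650 per array) were left out, repeated spots averaged, and log2 processed signals set against each array's 75th percentile. Probes well above background on at least 3 arrays with 2 values per group (27426) were fitted with limma 3.58.1 in R 4.3.3 (lmFit, eBayes, two-sided, adjusted p threshold 0.05). Errors are SD between samples or SE of the fit. The procedure was tested on simulated data. From each list the text names up to 4 called genes with the largest difference among those well above background on all 6 arrays, plus bounds. The members, lists and alternatives were chosen with earlier results of these data known. Alternatives changed the samples counted, the normalization, the background correction (normexp, offset 50, on median signals, since mean signals are not used here), the filter, the probes per gene and the scan. Same-numbered replicates did not deviate together (r = 0.17, 0.08 and -0.01), so the numbers were not used as pairs.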

Additional observations from a re-analysis of the deposited data

How the results depend on the processing

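The number of samples that the no injury group stands for decides most calls. With its 3 arrays taken as 1 sample, whose spread is then assumed to be that of the DDC injury group, 279 probes were higher and 133 lower (main values 4243 and 3788), 0 member probes were called in either direction, and 2 pathway genes were higher and 0 lower (main values 19 and 22). With all 6 arrays separate, 5933 probes were lower, 2 member probes were higher and 29 pathway genes were higher. With scan as a random block the counts were 2770 and 2280 probes, 1 member probe lower, and 8 and 12 pathway genes; with no filter on dim probes, 2494 probes lower, 1 member probe lower, and 10 and 11 pathway genes; with 1 probe per gene, 2768 and 2468 probes. Quantile normalization, the authors' values and the shared scan day each gave 2 member probes higher, and quantile normalization 1 lower. Leaving out 1 array at a time gave 292 to 5490 probes higher, 108 to 4839 lower, 0 to 2 member probes higher, 0 to 3 lower, 2 to 26 pathway genes higher and 0 to 29 lower; the lowest counts came without no injury replicate 2, and without DDC injury replicate 3 there were 2433 probes higher and 2221 lower. The cause of these shifts was not tested. Counts did not simply follow the number of samples. Leaving out DDC injury replicate 1 (4925 probes higher, 4839 lower) or replicate 2 (5490 and 4767) gave more calls than the main setting. Leaving out no injury replicate 1 or 3 keeps the number of samples, since the other then stands for the averaged pair.

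The shared scan day and leaving out DDC injury replicate 1 are the same fit, counted once below. Of 179 values of member probes under an alternative, 151 kept direction and side of the threshold, 12 lost and 10 gained a call, and 6 reversed, all in probes without a call. Under normexp with the 75th percentile the Ptges probe A_55_P1974193 differed by 0.11, Ptgis by 0.030, Ptger1 by 0.049 and Ptger3 by 0.19; on the shared scan day, as without DDC injury replicate 1, the same Ptges probe differed by 0.030 and Ptgis by 0.20; without each array in turn they ranged from -0.13 to 0.030 and from -1.08 to 0.20. The median difference of all probes was -0.10 in the main setting, 0.00 under quantile normalization and 0.08 under normexp with the 75th percentile. With the replicate number as a block over all 6 arrays, 4360 probes were higher and 4200 lower, 1 member probe was higher and 2 lower, and no member call changed. Dim probes limit the receptors: 2 of 13 member probes could not be tested.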
